A study of Mus musculus with 28 samples.

Results

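The malate-aspartate shuttle was examined through its 7 classical genes, Got1, Got2, Mdh1, Mdh2, Slc25a11, Slc25a12 and Slc25a13, out of 17995 genes with a row in at least 1 of the 2 expression tables of single mouse embryos. The genes were taken by name and matched through the Ensembl identifiers of the tables, and all 7 were found in both. The set was chosen by function with the genotype differences in the expression values of these same embryos already known, so the genes' differences between genotypes are given as a description, with fold changes and standard errors (SE) and with no p-value. Counts of these genes past a threshold appear only beside the same share or count over all tested genes, also as a description.

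All embryos were whole embryos of the outbred strain CD1, and each library came from 1 embryo. Groups carry the genotype codes of the sample titles, which are not spelled out there, and the study title concerns CTCF, the zinc-finger protein that binds DNA and anchors chromatin loops. The 14 blastocysts were 3 labelled WT_flfl, 4 het, 4 M_KO and 3 MZ_KO, and the 13 morulae were 3 labelled het, 4 del and 6 MZKO. The deposited data name the morulae E2.5 and the blastocysts E3.5, in days of embryonic development. Neither the Cre driver nor the mothers are given in the sources used here. WT_flfl and het blastocysts share a title prefix, and so do M_KO and MZ_KO blastocysts. The MZKO morulae have a prefix of their own, and het and del morulae share another. The targeted gene, Ctcf, was at 95.1 ± 6.02 counts per 1000000 reads (CPM; mean ± SD) in WT_flfl blastocysts, 67.5 ± 9.73 in het, 69.5 ± 15.6 in M_KO and 3.62 ± 0.660 in MZ_KO. In morulae Ctcf was at 38.6 ± 14.6 CPM in het, 2.3 ± 2.68 in del and 4.33 ± 3.60 in MZKO, with 0 reads in del 4 and MZKO 8, so M_KO blastocysts held Ctcf RNA close to the het level and the MZ_KO, MZKO and del embryos held little.

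Read totals ran from 7377302 to 27883060 in the blastocysts and from 12136606 to 20414013 in the morulae, except for the morula del 6, which had 1635553. At those depths 3 reads, used as the detection floor, correspond to at most 0.399 CPM in a blastocyst and to 1.74 CPM in del 6. The morulae MZKO 1 and het 1 stood apart together, although their labels differ. Their deviations from their group means correlated across genes with a coefficient of 0.734, they had the most genes detected of the 13 morulae, and they had the highest summed CPM of the oviduct, granulosa and cumulus, and blood marker lists. Among the blastocysts, WT_flfl 1 and het 6 had the highest haemoglobin shares, 3.43% and 3.10% of the scaled reads, against at most 1.137% in the other 12. Results are therefore also given without these pairs of embryos. All 6 trophectoderm markers were detected in every blastocyst group, and their summed level was 3729 to 4916 CPM in MZ_KO, 5338 to 9181 in M_KO, 6933 to 7184 in WT_flfl and 4575 to 7326 in het. The summed level of the 3 inner cell mass markers was 684 to 878 CPM in MZ_KO and 363 to 654 CPM in the other blastocysts. That of the 3 primitive endoderm markers was 50.6 to 58.0 CPM in MZ_KO and 73.1 to 292 CPM in the others. The sums lean on their highest genes. Over the blastocysts the medians of the trophectoderm markers Krt8 and Krt18 were 2820 and 2500 CPM. Those of the inner cell mass markers Pou5f1, Nanog and Sox2 were 368, 160 and 8.43 CPM. The part of the marker differences between groups in the results below was not tested. In whole embryos, fewer cells of a type and less RNA per cell cannot be told apart.

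The shuttle carries the reducing equivalents of cytosolic NADH into mitochondria, whose inner membrane NADH does not cross. Cytosolic malate dehydrogenase (Mdh1) reduces oxaloacetate to malate, the oxoglutarate carrier (Slc25a11) exchanges malate for 2-oxoglutarate, and mitochondrial malate dehydrogenase (Mdh2) makes oxaloacetate and NADH inside. Mitochondrial aspartate aminotransferase (Got2) then makes aspartate, an aspartate-glutamate carrier (Slc25a12, also called aralar, or Slc25a13, also called citrin) exports it, and cytosolic aspartate aminotransferase (Got1) returns it to oxaloacetate. Early cleavage-stage mouse embryos depend on pyruvate, and glucose use increases towards the blastocyst.

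Promoter sequences are shown for Got2, Slc25a11 and Got1, whose RNA was lower in every MZ_KO blastocyst than in every other blastocyst, and for Mdh2, whose RNA was not. Each runs 5′ to 3′ along the gene's strand from 250 bases before to 50 bases after the transcription start, taken from RefSeq on GRCm38.p6, where all 7 genes had an entry. Got2 lies at chr8:95888352-95888651 on the minus strand, Slc25a11 at chr11:70646990-70647289 on the minus strand, Got1 at chr19:43524556-43524855 on the minus strand and Mdh2 at chr5:135778399-135778698 on the plus strand. Capitals mark matches of 3 letter patterns searched on both strands. CCNNNAGGG and AGNNGGCGC are overlapping parts of the core sequence bound by CTCF, and CTCGCGAG is a palindrome found in some mammalian promoters. The patterns were chosen after the sequences had been seen.
Got2: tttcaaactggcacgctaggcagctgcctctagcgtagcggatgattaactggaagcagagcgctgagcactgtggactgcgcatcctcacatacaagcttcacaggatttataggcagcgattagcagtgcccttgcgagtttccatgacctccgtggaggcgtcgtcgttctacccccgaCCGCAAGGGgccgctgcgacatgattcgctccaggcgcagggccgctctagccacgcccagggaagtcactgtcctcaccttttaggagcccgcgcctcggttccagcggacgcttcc
Slc25a11: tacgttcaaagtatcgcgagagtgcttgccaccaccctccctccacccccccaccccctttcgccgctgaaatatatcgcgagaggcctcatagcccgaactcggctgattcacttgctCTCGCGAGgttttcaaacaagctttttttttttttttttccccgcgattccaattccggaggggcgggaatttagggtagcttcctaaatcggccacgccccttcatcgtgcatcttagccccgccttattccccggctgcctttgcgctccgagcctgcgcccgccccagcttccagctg
Got1: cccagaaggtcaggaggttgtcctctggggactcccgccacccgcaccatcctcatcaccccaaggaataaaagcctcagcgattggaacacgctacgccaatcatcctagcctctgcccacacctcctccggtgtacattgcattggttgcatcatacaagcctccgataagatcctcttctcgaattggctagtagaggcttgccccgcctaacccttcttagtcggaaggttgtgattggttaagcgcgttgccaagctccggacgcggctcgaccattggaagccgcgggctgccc
Mdh2: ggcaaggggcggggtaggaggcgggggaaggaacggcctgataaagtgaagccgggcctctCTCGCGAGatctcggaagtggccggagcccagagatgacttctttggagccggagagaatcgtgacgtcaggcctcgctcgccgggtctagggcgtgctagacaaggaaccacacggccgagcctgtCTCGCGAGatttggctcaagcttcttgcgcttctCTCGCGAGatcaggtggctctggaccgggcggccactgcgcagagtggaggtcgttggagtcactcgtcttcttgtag

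The Got2 window held 1 match of CCNNNAGGG, read as CCGCAAGGG, and no match of AGNNGGCGC. The windows of Slc25a12 and Slc25a13, whose MZ_KO levels lay among those of the other blastocysts, also held 1 match of CCNNNAGGG each, and those of the other 4 genes held 0. CCNNNAGGG occurs in 21.4% of the 32851 RefSeq promoter windows of this length and AGNNGGCGC in 7.23%. The Mdh2 window held 3 matches of CTCGCGAG and the Slc25a11 window 1, and 0.919% of all windows hold this pattern. The Got1 window held no match of any of the 3 patterns, which says only that these letters are not in it. A match is a description of sequence and was not related to binding here.

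The aspartate aminotransferases differed between MZ_KO and all other blastocysts, and the mitochondrial enzyme had the largest difference of the 7 genes. Got2 (ENSMUSG00000031672, chromosome 8, 95864134 to 95888547, minus strand, GRCm38) was at 114, 114 and 111 CPM in WT_flfl 1, 7 and 9. It was at 89.4, 93.9, 118 and 135 CPM in het 3, 5, 6 and 8, and at 83.3, 115, 97.9 and 71.4 CPM in M_KO 1, 3, 4 and 5. In MZ_KO 2, 6 and 7 it was at 14.3, 9.64 and 7.63 CPM, which correspond to 344, 210 and 207 reads. Every MZ_KO embryo was thus far below the lowest of the other 11, and the 3 WT_flfl embryos were nearly alike. The mean of MZ_KO, 10.5 ± 3.44 CPM, was 10.7-fold below that of WT_flfl (113 ± 1.69), 10.4-fold below that of het (109 ± 21.6) and 8.72-fold below that of M_KO (91.9 ± 18.8). On the log2(CPM + 1) scale used for all fits, which understates differences of low genes, the differences were −3.35 (SE 0.25), −3.28 (SE 0.23) and −3.03 (SE 0.23).

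Got1 (ENSMUSG00000025190, chromosome 19, 43499752 to 43524605, minus strand), the cytosolic partner, was at 377, 394 and 258 CPM in WT_flfl 1, 7 and 9 and at 332, 308, 284 and 266 CPM in het 3, 5, 6 and 8. In M_KO 1, 3, 4 and 5 it was at 299.9, 301, 325 and 430.5 CPM. In MZ_KO 2, 6 and 7 it was at 155, 157 and 167 CPM, close to each other and below all the others. MZ_KO (159.9 ± 6.49 CPM) was 2.14-fold below WT_flfl (343 ± 74.1), 1.86-fold below het (297 ± 28.9) and 2.12-fold below M_KO (339 ± 62.1). The log2 differences were −1.07 (SE 0.18), −0.89 (SE 0.17) and −1.06 (SE 0.17). Set against each other per kilobase of transcript, a ratio within each embryo that no scaling touches, Got2 made up 7.0, 4.75 and 3.58% of Got1 plus Got2 in MZ_KO 2, 6 and 7. The share was 21.6 ± 3.79% in WT_flfl, 23.1 ± 5.17% in het and 18.4 ± 4.91% in M_KO, and no embryo of those groups was under 11.9%. This lower share follows from the larger fold difference of Got2 than of Got1 and is not a separate result.

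Of the carriers, the oxoglutarate carrier was also lowest in MZ_KO. Slc25a11 (ENSMUSG00000014606, chromosome 11, 70644196 to 70647479, minus strand) was at 166, 130.5 and 254 CPM in WT_flfl 1, 7 and 9, at 174, 134, 183 and 217 CPM in het 3, 5, 6 and 8, and at 208, 168, 133 and 130.1 CPM in M_KO 1, 3, 4 and 5. In MZ_KO 2, 6 and 7 it was at 73.4, 50.7 and 79.2 CPM, again below every other blastocyst. The mean of 67.8 ± 15.1 CPM was 2.71-fold below WT_flfl (183 ± 63.4), 2.61-fold below het (177 ± 33.9) and 2.35-fold below M_KO (159.5 ± 36.4), with log2 differences of −1.39 (SE 0.26), −1.38 (SE 0.24) and −1.22 (SE 0.24). Slc25a11 shares 189 of its 2120 exon bases with Rnf167, a ubiquitin ligase gene on the other strand, and the kit does not mark strand. Rnf167 was at 49.9 ± 11.9 CPM in MZ_KO, 54.6 ± 22.2 in M_KO, 67.7 ± 23 in het and 87.2 ± 17.5 CPM in WT_flfl. It was thus also lower in MZ_KO than in WT_flfl and het, and the part of shared reads in the Slc25a11 difference was not tested.

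Both aspartate-glutamate carriers had MZ_KO values within the range of the other blastocysts. Slc25a12 (ENSMUSG00000027010, chromosome 2, 71271063 to 71367749, minus strand) was at 23.5, 11.3 and 11.8 CPM in MZ_KO 2, 6 and 7 and at 7.58 to 25.4 CPM in the other 11. The log2 difference between MZ_KO and WT_flfl was 0.46 (SE 0.44). Slc25a13 (ENSMUSG00000015112, chromosome 6, 6041218 to 6217173, minus strand) was at 82.9, 115 and 104 CPM in MZ_KO 2, 6 and 7 and at 35.9 to 137 CPM in the others, with WT_flfl 1 and M_KO 3 the lowest. Its log2 difference from WT_flfl was 0.40 (SE 0.41), and −0.13 without WT_flfl 1 and het 6. Neither difference was larger than about its own standard error, so none was detectable for these carriers at this spread.

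The malate dehydrogenases parted in the same embryos. Mdh2 (ENSMUSG00000019179, chromosome 5, 135778480 to 135790398, plus strand), the mitochondrial enzyme shared with the tricarboxylic acid cycle, was at 921, 703 and 788 CPM in MZ_KO 2, 6 and 7. It was at 908, 859 and 868 CPM in WT_flfl 1, 7 and 9, and at 715 to 889.6 CPM in the het and M_KO embryos. The groups overlapped, the highest of the 14 blastocysts was only 1.31-fold above the lowest, and both of these were MZ_KO embryos. The log2 differences of MZ_KO were −0.14 (SE 0.13) from WT_flfl, −0.02 (SE 0.12) from het and 0.04 (SE 0.12) from M_KO.

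Mdh1 (ENSMUSG00000020321, chromosome 11, 21556787 to 21572367, minus strand), the cytosolic enzyme, was at 58.8, 59.6 and 91.0 CPM in MZ_KO 2, 6 and 7. It was at 130.3, 136, 172 and 164 CPM in het 3, 5, 6 and 8 and at 125, 150.0, 135 and 141 CPM in M_KO 1, 3, 4 and 5, all above MZ_KO. In WT_flfl 1, 7 and 9 it was at 154, 134 and 74.6 CPM, so that WT_flfl 9 lay inside the MZ_KO range. The MZ_KO mean of 69.8 ± 18.3 CPM was 2.16-fold below het and 1.97-fold below M_KO, with log2 differences of −1.12 (SE 0.23) and −1.0 (SE 0.23). Against WT_flfl (121 ± 41.3 CPM) it was 1.73-fold lower, with a log2 difference of −0.75 (SE 0.24), which was −1.06 without WT_flfl 9 and −0.54 without WT_flfl 1 and het 6. Mdh2 made up 94.3 ± 1.58% of Mdh1 plus Mdh2 per kilobase in MZ_KO, 91.4 ± 2.61% in WT_flfl, 88.7 ± 1.48% in het and 89.2 ± 0.585% in M_KO. WT_flfl 9, at 94.4%, lay inside the MZ_KO range of 92.7 to 95.8%. The share follows from the Mdh1 difference and is not a separate result.

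**Figure D1:**
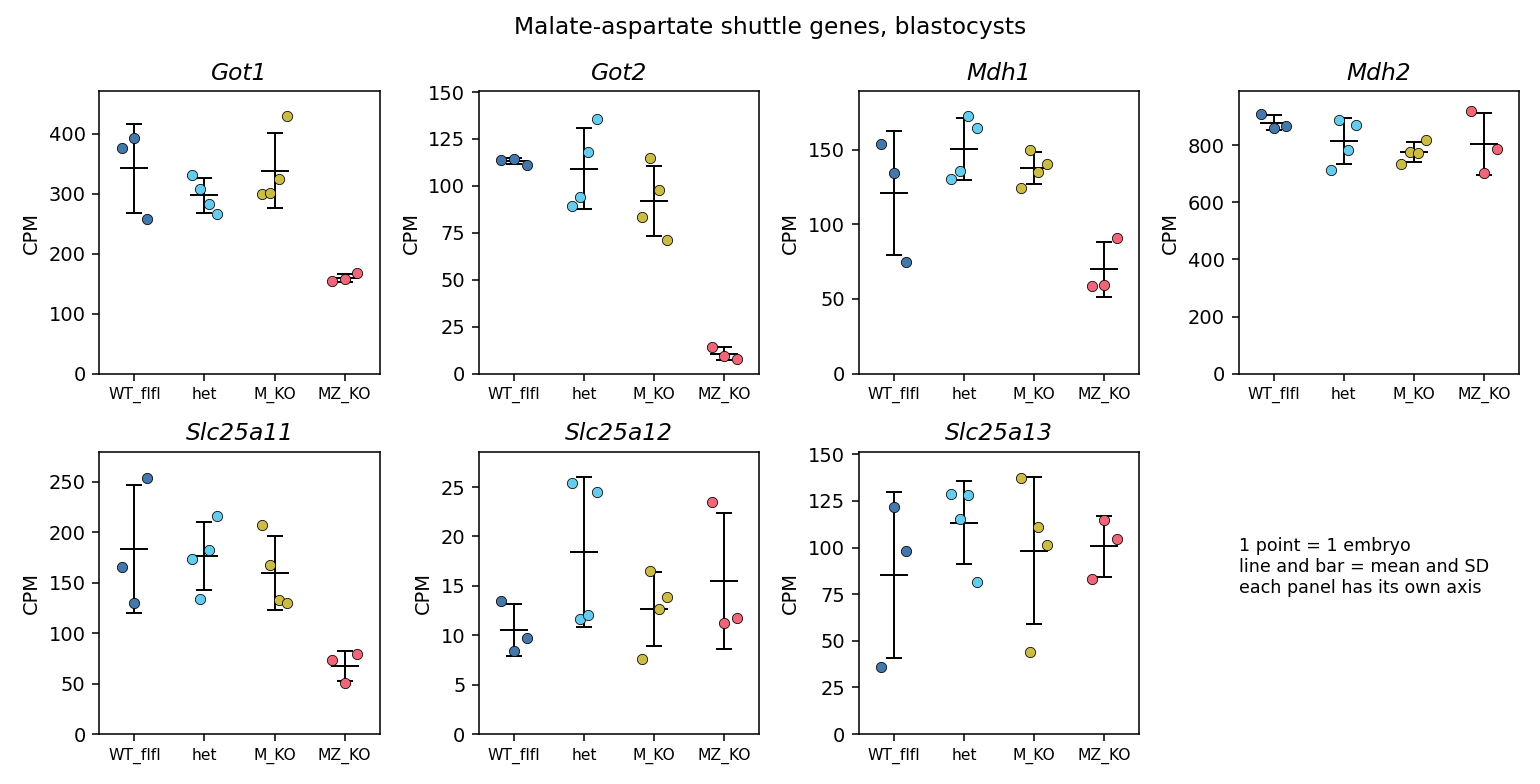
CPM of the 7 shuttle genes (vertical axes, 1 scale per panel, from 0) in blastocysts of the 4 groups (horizontal axes); points are embryos, and lines with bars are means and SDs. The 3 MZ_KO points lie below all others for Got1, Got2 (7.63 to 14.3 CPM) and Slc25a11, overlap WT_flfl for Mdh1, and lie among the others for Mdh2, Slc25a12 and Slc25a13.

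A linear model across all genes (limma with an intensity trend, Benjamini-Hochberg adjusted p under 0.05) gave the background for these differences. Against WT_flfl it called 13.2% of 9585 tested genes, 4.84% higher and 8.36% lower in MZ_KO, and the called genes included 3 of the 7 shuttle genes, Got1, Got2 and Slc25a11. Against het it called 17.9% of the genes and 4 of the 7, and against M_KO 11.8% (3.74% higher and 8.09% lower), again with 4 of the 7. Mdh1 was the added gene in both. Every called shuttle gene was lower in MZ_KO, but the genes were chosen with this contrast known, so nothing is read from the counts. Groups did not overlap for 3 of the 7 genes against WT_flfl, where 32.3% of all tested genes did not overlap, and for 4 of the 7 against het (26.9%) and against M_KO (22.1%). The median log2 difference of the 7 genes was −0.75, −0.89 and −1.0 against WT_flfl, het and M_KO, beside −0.05, −0.06 and −0.03 over all tested genes. The 3 comparisons share the MZ_KO embryos and are not separate evidence.

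Without WT_flfl 1 and het 6, the embryos with the most haemoglobin RNA, the log2 differences between MZ_KO and WT_flfl were −3.34 for Got2, −0.99 for Got1 and −1.44 for Slc25a11. No shuttle gene gained or lost a call in that fit. The comparisons among the groups that keep Ctcf RNA gave a different picture. In M_KO against WT_flfl, M_KO against het and het against WT_flfl, limma called 0 of 9585 genes (0%), and 0 shuttle genes. At an unadjusted p under 0.05, limma counted 494, 638 and 187 genes (5.15%, 6.66% and 1.95%) in these comparisons, and 0 shuttle genes in each. With limma voom, a weighting by read depth, it also called 0 genes in each. Mdh2 was the only shuttle gene whose M_KO and WT_flfl embryos did not overlap, at 775 ± 35.0 and 878 ± 26 CPM, a log2 difference of −0.18 (SE 0.12), beside 6.7% of all tested genes without overlap. In M_KO against het and het against WT_flfl all 7 shuttle genes overlapped, where 3.72% and 4.06% of all tested genes did not.

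**Figure D2:**
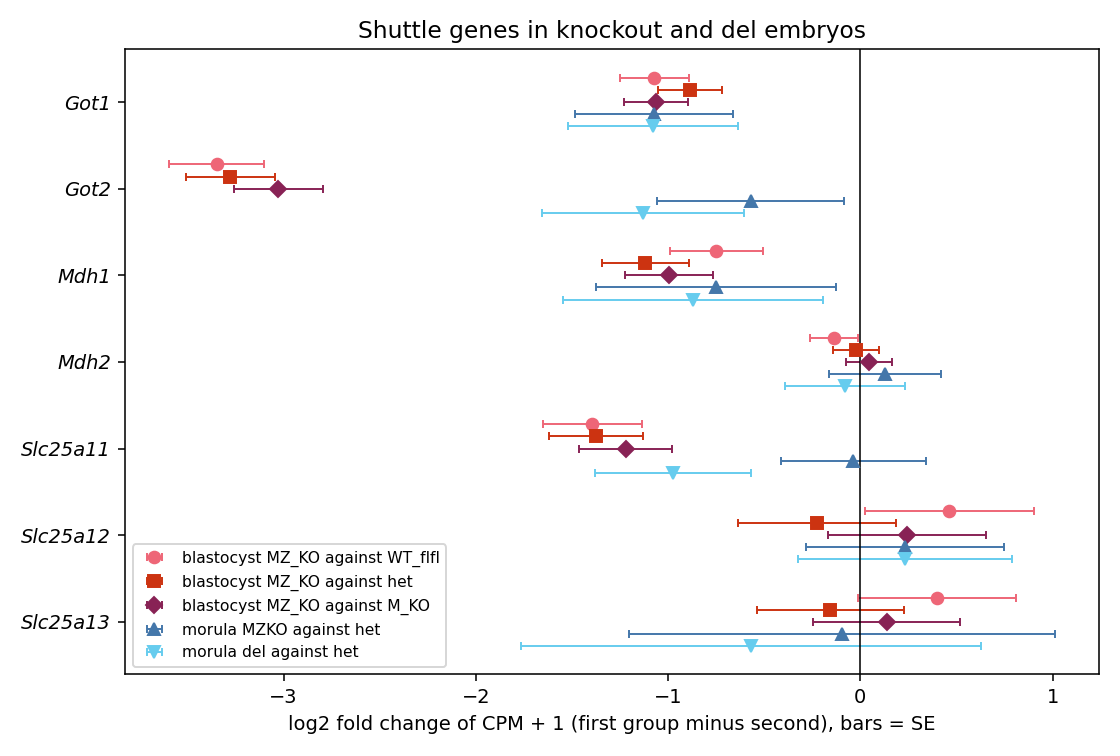
Log2 fold change of CPM + 1 (horizontal axis, first group minus second, bars are SE) for the 7 shuttle genes (vertical axis) in 5 comparisons, 3 of blastocysts and 2 of morulae. The blastocyst MZ_KO symbols lie furthest left for Got2, between −3.35 and −3.03, and the morula symbols have wider bars.

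In morulae the shuttle genes varied more between embryos of a group. Differences of MZKO from het were smaller than or similar to their errors for all genes but Got1. Those of del from het were larger than their errors for Got1, Got2 and Slc25a11, and by less for Mdh1 (−0.87, SE 0.68). That of MZKO from del was larger than its error for Slc25a11, and by less for Got2 (0.56, SE 0.44). Got1 was at 89.4, 149 and 189 CPM in het 1, 5 and 7 and at 88.0, 74.3, 75.4 and 33.7 CPM in del 2, 3, 4 and 6. In the 6 MZKO morulae Got1 ran from 37.6 to 124 CPM with a median of 60.1. Every del embryo was below every het embryo, although del 2 and het 1 nearly touched, and 2 MZKO embryos, 2 and 4, lay in the het range. The log2 difference from het was −1.08 in MZKO (SE 0.41) and −1.08 in del (SE 0.44). Without MZKO 1 and het 1 these became −1.23 and −1.38, and without del 6 the del value became −0.78. The means of MZKO (70.6 ± 34.7 CPM) and del (67.8 ± 23.6 CPM) were thus close to each other and below that of het (143 ± 50.1 CPM).

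Got2 did not have in morulae the separation it had in blastocysts. It was at 99.2, 66.6 and 40.6 CPM in het 1, 5 and 7, at 33.5, 14.6, 59.1 and 23.8 CPM in del 2, 3, 4 and 6, and at 17.3 to 81.8 CPM in MZKO, with a median of 44.7. All 3 groups overlapped. The log2 difference from het was −0.57 (SE 0.49) in MZKO and −1.13 (SE 0.53) in del, or −0.44 and −0.82 without MZKO 1 and het 1. The Got2 share of Got1 plus Got2 per kilobase was 36.5 ± 16.6% in MZKO, 28.2 ± 11.7% in del and 29.6 ± 16.5% in het, with no separation of groups. The 2 stages were not compared by a test, because each table was scaled on its own. Stage and sequencing batch also cannot be told apart in the libraries analysed here.

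Slc25a11 was at 214, 91.0 and 73.4 CPM in het 1, 5 and 7 and at 70.8, 68.6, 39.6 and 54.0 CPM in del 2, 3, 4 and 6. In MZKO it ran from 74.5 to 208 CPM with a median of 97.9. The del embryos were below all het and all MZKO embryos, with log2 differences of −0.98 (SE 0.41) from het and, for MZKO minus del, 0.94 (SE 0.34). MZKO and het overlapped, with a log2 difference of −0.04 (SE 0.38). Without MZKO 1 and het 1, the highest embryos of their groups, the difference of del from het was −0.52 and that of MZKO from del 0.76. Slc25a11 was not called in any of these comparisons, and del and MZKO differ in title prefix as well as in label. The summed trophectoderm markers were also lower in del (237 to 723 CPM) than in het (752 to 1272 CPM), with MZKO at 325 to 1126 CPM, and their part was not tested.

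For Mdh1 and Mdh2, het 1 and MZKO 1 lay at the ends of the range of all morulae. Mdh1 was at 231 CPM in het 1 and 183 CPM in MZKO 1, and at 15.5 to 65.6 CPM in the other 11 morulae. Mdh2 was at 388 CPM in het 1 and 371 CPM in MZKO 1, and at 540.0 to 838 CPM in the others. These embryos were thus the highest for the cytosolic enzyme and the lowest for the mitochondrial enzyme, whatever their genotype label. Mdh2 made up 71.0% of Mdh1 plus Mdh2 per kilobase in het 1 and 74.7% in MZKO 1, against 92.6 to 98.2% in the other 11. The log2 difference of Mdh1 from het was −0.75 (SE 0.63) in MZKO and −0.87 (SE 0.68) in del, and without the pair −0.35 and −0.06. For Mdh2 it was 0.13 (SE 0.29) and −0.08 (SE 0.31), and without the pair −0.03 and −0.40.

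Slc25a12 was at 40.2, 101 and 21.4 CPM in het 1, 5 and 7, at 33.7 to 90.6 CPM in del and at 21.7 to 114 CPM in MZKO, with a log2 difference from het of 0.23 in both (SE 0.52 for MZKO and 0.56 for del). Slc25a13 was at 26.8, 3.30 and 6.23 CPM in het 1, 5 and 7 and at 15.3, 24 and 3.16 CPM in del 2, 3 and 4. It had 0 reads in del 6, where the floor is 1.74 CPM, and ran from 0.209 to 30.6 CPM in MZKO. Its log2 difference from het was −0.10 (SE 1.11) in MZKO and −0.57 (SE 1.20) in del, or 0.31 and 0.20 without MZKO 1 and het 1, so no difference in either direction was detectable at these levels.

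In morulae limma called 0.482% of 9953 tested genes in MZKO against het (0.412% higher and 0.0703% lower), 0.01% in del against het and 0.181% in MZKO against del (0.141% higher and 0.0402% lower), and 0 shuttle genes in each. At an unadjusted p under 0.05, limma counted 1, 3 and 1 shuttle genes, beside 8.66%, 5.05% and 8.25% of all tested genes. With limma voom it called 0 shuttle genes in each, beside 24, 0 and 2 of all tested genes. Groups did not overlap for 0, 2 and 1 of the 7 genes, beside 4.25%, 5.98% and 2.32% of all genes. The median log2 difference of the 7 genes from het was −0.10 in MZKO and −0.87 in del, beside −0.02 and −0.04 over all tested genes. The del median is the value of Mdh1, which was −0.06 without het 1, so this median leans on that embryo. The median of the 7 genes without het 1 was not computed.

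**Figure D3:**
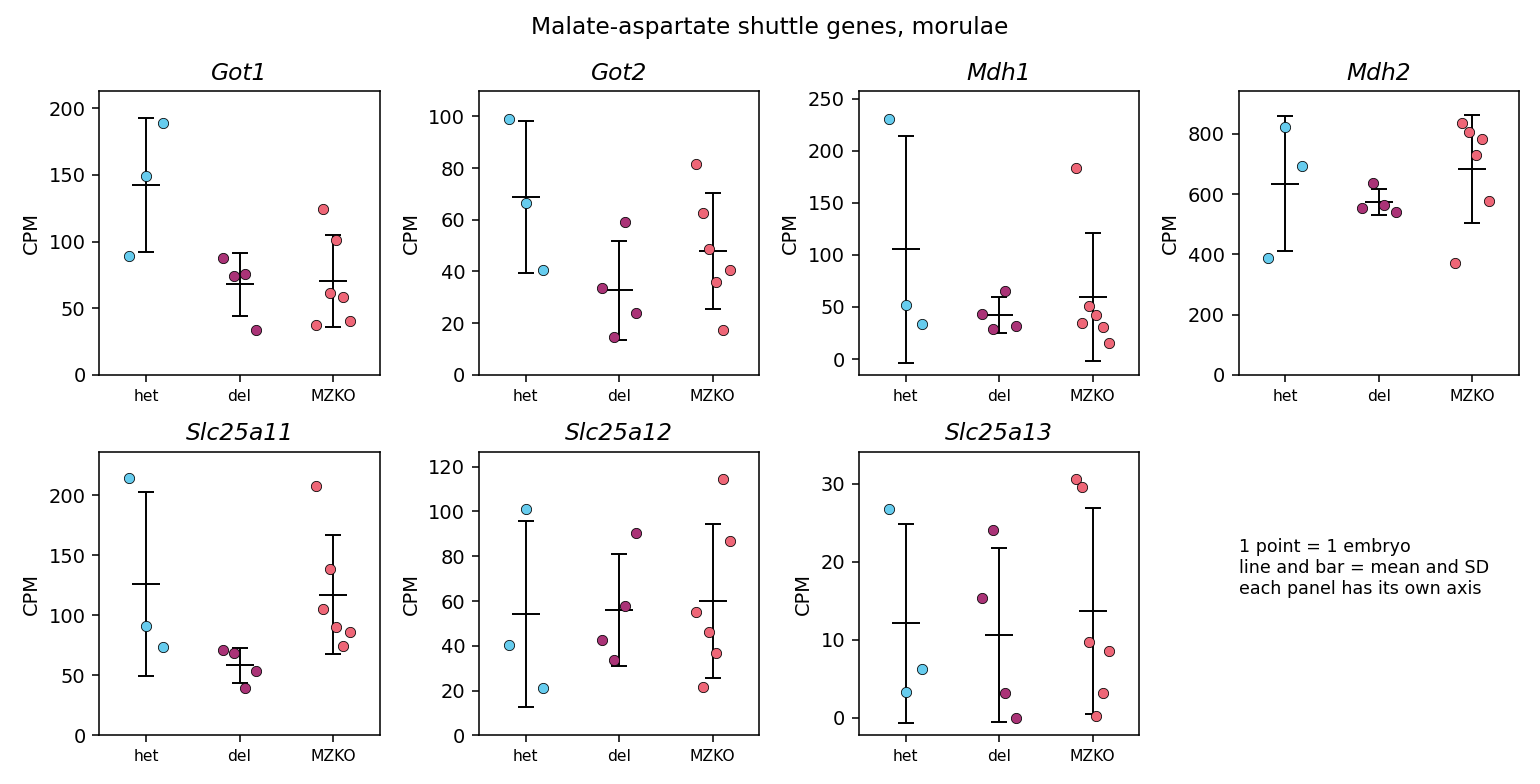
CPM of the 7 shuttle genes (vertical axes, 1 scale per panel, including 0) in het, del and MZKO morulae (horizontal axes); points are embryos, and lines with bars are means and SDs. The single high points of Mdh1 in het (231 CPM) and MZKO (183 CPM) are het 1 and MZKO 1, which are also the low points of Mdh2.

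Per kilobase of the longest coding transcript, Mdh2 had the highest mean of the 7 genes in every group at both stages. In the 11 blastocysts of WT_flfl, het and M_KO the mean was 562 CPM per kilobase for Mdh2, 158 for Got1, 101 for Slc25a11, 64.9 for Mdh1, 41.1 for Got2, 32.1 for Slc25a13 and 2.23 for Slc25a12. In MZ_KO it was 552 for Mdh2, 77.7 for Got1, 39.6 for Slc25a11, 32.9 for Mdh1, 32.3 for Slc25a13, 4.16 for Got2 and 2.44 for Slc25a12, so Got2 stood below Slc25a13 there. Over the 13 morulae the order was Mdh2 at 439, Slc25a11 at 59.1, Got1 at 42.0, Mdh1 at 30.6, Got2 at 19, Slc25a12 at 9.06 and Slc25a13 at 3.96 CPM per kilobase, and it was the same without MZKO 1 and het 1. Embryos of neighbouring genes overlapped from Got1 to Slc25a13 in the 11 blastocysts and from Slc25a11 to Slc25a13 in the morulae, so the order within these stretches is not beyond the spread. Mdh2 did not overlap the next gene at either stage. By these means the aspartate-glutamate carriers changed places between the stages. In the morulae MZKO 1, MZKO 2, del 3 and het 1, however, Slc25a13 was still above Slc25a12 per kilobase.

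The carrier pair separated the stages when measured within embryos. Slc25a12 made up 2.65 to 15.6% of Slc25a12 plus Slc25a13 per kilobase in the 14 blastocysts, with a median of 5.28%. It made up 26.5 to 100% in the 13 morulae, with a median of 70.2%, the 100% being del 6 with 0 reads of Slc25a13. No blastocyst overlapped a morula, and this holds without del 6, MZKO 1 and het 1. Within a stage the genotype groups were close, with 7.35 ± 4.22% in MZ_KO, 7.47 ± 5.65% in M_KO, 7.85 ± 6.76% in WT_flfl and 7.73 ± 4.0% in het blastocysts. In morulae the share was 70.0 ± 28.4% in MZKO, 72.1 ± 27.6% in del and 66.3 ± 25.8% in het. The share is a ratio within an embryo and does not depend on scaling. However, all blastocyst libraries analysed here were in 1 sequencing batch and all morulae in the other. Stage and batch therefore cannot be told apart in these libraries, and no test is given. Adpgk, which has a transcript with a 247-base stretch nearly identical to Slc25a12, was at a median of 57.5 CPM in blastocysts (31.2 to 85.6) and 5.24 CPM in morulae (0.487 to 31.4), and the part of shared reads in the share was not tested.

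**Figure D4:**
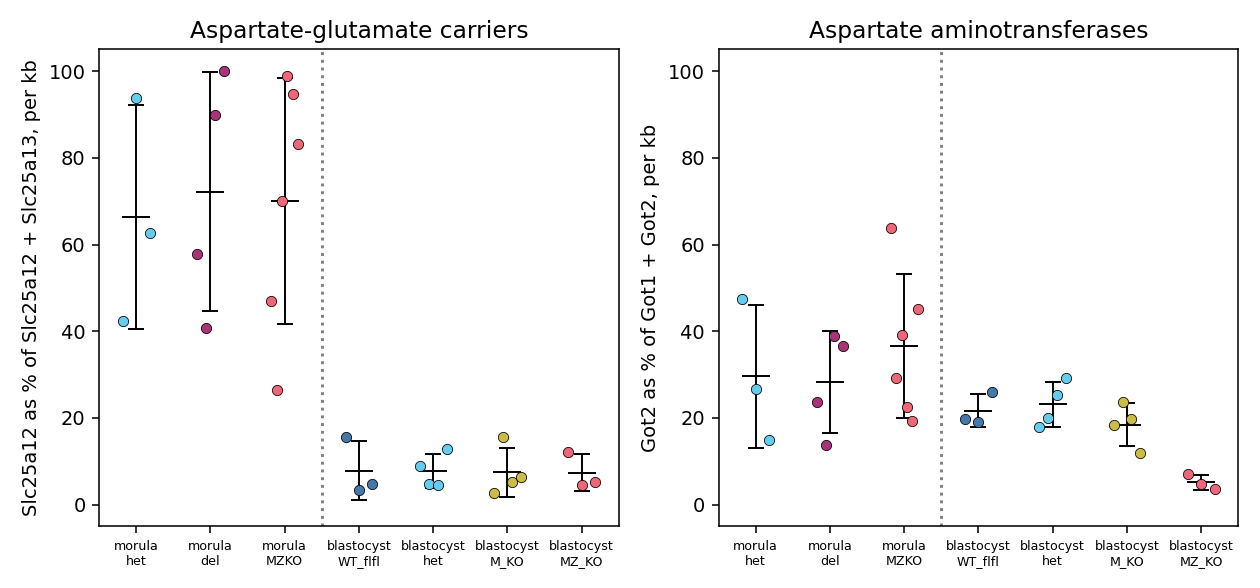
Share of Slc25a12 in the aspartate-glutamate carriers (left) and of Got2 in the aspartate aminotransferases (right), in percent per kilobase, by stage and group (horizontal axis); points are embryos, and lines with bars are means and SDs. Left, all morulae (26.5 to 100%) lie above all blastocysts (2.65 to 15.6%); right, the MZ_KO blastocysts lie below the other groups.

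Among all tested genes, those whose levels followed Got2 most closely over the 14 blastocysts by Pearson correlation of log2(CPM + 1) were Bola3 (r = 0.986), a mitochondrial iron-sulfur cluster factor, Ndufb7 (r = 0.979), a subunit of respiratory complex I, and Adprhl2 (r = 0.978), an ADP-ribosylhydrolase. Bola3 was at 29.6 ± 1.65 CPM in WT_flfl and 2.67 ± 0.486 in MZ_KO, and Ndufb7 at 116 ± 2.07 and 21.1 ± 3.21 CPM. Adprhl2 was at 123 ± 33.7 CPM in WT_flfl and 0.0139 ± 0.0241 in MZ_KO. That MZ_KO mean lies under the floor of 3 reads, which is 0.111 to 0.138 CPM in these embryos. The nearest to Slc25a11 were Pomk (r = 0.948), a protein O-mannose kinase, Tmem126a (r = 0.946), a mitochondrial membrane protein, and Nkiras2 (r = 0.939), an inhibitor of NF-kappa-B signalling. Nkiras2 was at 95.7 ± 17.7 CPM in WT_flfl and 37.3 ± 6.11 in MZ_KO. These 6 genes, like Got2 and Slc25a11, separate MZ_KO from the other groups, which by itself gives a high correlation, and no p is attached.

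The genes around the shuttle were taken as 4 lists of textbook neighbours, 58 genes without the members, of which 49 were tested at each stage. The lists too were written with earlier results known, so limma adjusted p-values of their genes describe these embryos and are not independent tests. In blastocyst MZ_KO against WT_flfl, 4 of the 49 rose and 11 fell, which is 30.6% beside 13.2% of all tested genes. Against het the counts were again 4 and 11, beside 17.9%. Against M_KO, which shares the title prefix of MZ_KO, 3 rose and 11 fell (28.6%), beside 11.8% of all tested genes. No set test was made, and nothing is called particular to the lists.

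The glycerol phosphate shuttle is the other route for cytosolic NADH. Of the 12 tested genes of the list that joins it with lactate and pyruvate handling, 3 rose and 2 fell in MZ_KO against WT_flfl. That is 41.7%, beside 13.2% of all tested genes. Against M_KO, 2 rose and 1 fell (25%), beside 11.8% of all tested genes. The genes named below are compared with WT_flfl. Gpd1l, a glycerol-3-phosphate dehydrogenase-like gene, rose from 595 ± 137 CPM in WT_flfl to 1244 ± 201 in MZ_KO (log2 1.08, SE 0.30, limma adjusted p = 0.0266), the direction opposite to that of Got1 and Got2. Gpd2, the mitochondrial glycerol-3-phosphate dehydrogenase, was at 311 ± 64.0 and 359 ± 28.5 CPM and did not pass (limma adjusted p = 0.475). Mpc1, a subunit of the mitochondrial pyruvate carrier, rose by 0.64 on the log2 scale (limma adjusted p = 0.0388) and Pdhb, a subunit of pyruvate dehydrogenase, by 0.46 (limma adjusted p = 0.0279). Slc16a1, a lactate and pyruvate transporter, fell by 1.3 (limma adjusted p = 5.07e-04).

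Among 16 tested genes of glutamate and aspartate handling, 1 rose and 5 fell (37.5%), beside 13.2% of all tested genes. Glud1, glutamate dehydrogenase, which like Got2 links glutamate with 2-oxoglutarate in mitochondria, fell from 118 ± 17.6 to 50.2 ± 10.04 CPM (log2 −1.23, SE 0.21, limma adjusted p = 0.00131). The plasma membrane transporters of glutamate and aspartate went in opposite directions. Slc1a3 fell from 13 ± 6.15 to 0.943 ± 0.637 CPM (log2 −2.79, SE 0.52, limma adjusted p = 0.00231) and Slc1a1 rose from 194 ± 34.7 to 420 ± 88.6 CPM (log2 1.10, SE 0.22, limma adjusted p = 0.00411). Asns, which uses aspartate to make asparagine, fell by 3.57 (limma adjusted p = 3.69e-04).

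Of 6 tested genes for other reactions of malate, oxaloacetate and citrate, 1 fell (16.7%), beside 13.2% of all tested genes. This was Me1, the cytosolic malic enzyme, which fell from 260.1 ± 30.8 to 126 ± 41.6 CPM (log2 −1.10, SE 0.23, limma adjusted p = 0.00596). Of the 15 genes of the tricarboxylic acid cycle, 3 fell and 0 rose (20%), beside 13.2% of all tested genes. Idh3a, a subunit of isocitrate dehydrogenase, and Suclg1, a subunit of succinyl-CoA ligase, fell by 0.51 and 0.52 on the log2 scale (limma adjusted p = 0.0329 and 0.0420). Against het, Gpd1l, Slc1a1 and Glud1 moved in the same direction with limma adjusted p of 0.00406, 0.00719 and 1.65e-04, while the call of Me1 was lost, with a log2 difference of −0.58 (SE 0.22, limma adjusted p = 0.0816). The gene of the malate list that fell against het was Me2, the mitochondrial malic enzyme, by 1.22 (limma adjusted p = 0.0432).

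In M_KO against WT_flfl and against het, 0 of the 49 genes passed. At an unadjusted p under 0.05 in limma there were 1 and 3, beside 5.15% and 6.66% of all tested genes. In morula MZKO against het and del against het, 0 of 49 passed as well. At an unadjusted p under 0.05 in limma there were 7 and 6, beside 8.66% and 5.05% of all tested genes. With limma voom 0 of the 49 were called in each of these comparisons.

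**Figure D5:**
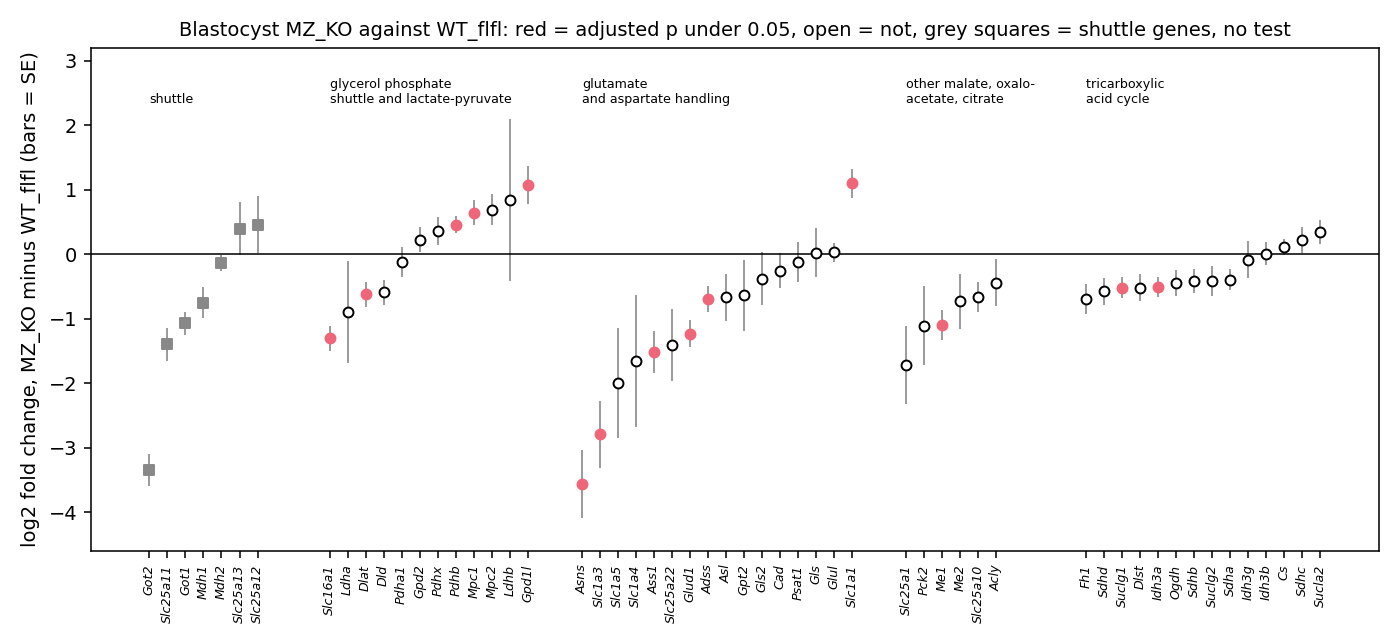
Log2 fold change between MZ_KO and WT_flfl blastocysts (vertical axis, bars are SE) for the shuttle genes (grey squares, no test) and tested genes of the 4 neighbouring lists, all but 1 (horizontal axis); red points have a limma adjusted p under 0.05 and open points do not. Slc1a1 and Gpd1l are the highest red points, at 1.10 and 1.08, and Asns is the lowest, at −3.57.

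The identity of the reads sets limits on some of the shuttle genes. Got2 has 4 look-alikes in the GENCODE M21 transcripts with at least 90% identity over at least 200 bases, the closest being Got2-ps1 (99.1% over 1293 bases) and Gm10874 (98.8% over 1637 bases). None of the 4 has a row in either table, so reads shared with them cannot be followed. Slc25a12 has 1, a 247-base match with a retained-intron transcript of Adpgk, and the other 5 genes have 0. Got2 also shares 434 of its 4824 exon bases with Gm45760 on the other strand, which has no row in either table. Mdh1 shares 52 of 2567 exon bases with Wdpcp on the other strand, which was at most 4.29 CPM in any blastocyst and at most 30.9 CPM in any morula.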

How the data were processed

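Per the labels' protocols, polyA RNA of single CD1 embryos was reverse transcribed by the SMART-Seq low-input method and sequenced on an Illumina HiSeq 2500. The submitters' processing notes name cutadapt 1.14, Bowtie2 2.2.9 and RSEM 1.3.1 and the builds GRCm38 and mm10, without their roles; the use of strand in counting is not stated there. The deposited tables hold log2 values, 1 table per stage, which the authors scaled separately. These log2 values behave as log2 CPM with 0.5 reads added: 100% of the values gave whole reads within a tolerance of 0.01 reads, and CPM was recovered from them. Since the deposited unit is log2 and not counts, the main fits used no count model. The recovered reads were used for the weights of the limma voom alternative. A further 3 rows of the blastocysts named no gene, held up to 0.0113% of an embryo's reads and were left out. Of 28 labelled samples 27 had a column. The second library of blastocyst het 3, which the labels place in the sequencing batch of the morulae, was not analysed here. Groups came from the titles.

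The fits used limma 3.58.1 (R 4.3.3) on log2(CPM + 1), on genes reaching 10 CPM in 3 or more embryos, all groups of a stage in 1 fit, two-sided, with Benjamini-Hochberg adjustment over all tested genes; the code was tested on simulated data. Nothing in the labels ties embryos to mothers, so p-values measure only the spread between these embryos. Embryos of a group differed beyond sampling noise (chi-square per degree of freedom at least 36.9). The detection floors cover counting error only, whereas the SDs and SEs come from the spread between embryos. All 7 shuttle genes are named, with at most 4 called genes per list by smallest adjusted p (1 such gene is not reported here), and the 3 genes most like each of the 2 shuttle genes with the largest difference from WT_flfl. The members, lists and marker genes were chosen with earlier results of these data known. Alternatives were pseudocounts of 0.5 and 5 CPM, other filters, plain read totals, limma voom, fits of 2 groups, a block for embryo number, and fits without single embryos or named pairs; the fit without MZKO 1 and het 1 was added after seeing the data. Look-alikes were searched with blastn 2.17.0 in GENCODE M21.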

Additional observations from a re-analysis of the deposited data

Results flagged for a closer look

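Of the 28 gene and group combinations with 4 to 10 embryos, 1 held an embryo far from the rest. Mdh1 in the morula MZKO 1 was at 183 CPM, while the other 5 MZKO morulae were at 15.5 to 51.1 CPM, and the gap was 0.788 of the range of the group. Chance alone flags about 1 in 20 such groups. MZKO 1 is one of the pair of morulae that stand apart, and het 1, at 231 CPM, is in a group too small for the same rule. Their oviduct marker sums were 1946 and 1269 CPM and their blood marker sums 4087 and 15542 CPM, the highest of the 13 morulae, and the part of these in the Mdh1 level was not tested.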

How the results depend on the processing

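Of the log2 fold changes of the shuttle genes recomputed under the alternatives, 1411 stayed within the spread between embryos, 17 moved further, and 0 of the called ones changed sign. In MZ_KO against WT_flfl the number of shuttle genes called was 4, with Mdh1 added, with plain read totals, without MZ_KO 7 or without WT_flfl 9, and the range over fits without 1 embryo was 3 to 4. Against het and M_KO it was 4 in all of these fits. Over all genes, plain read totals gave 1258, 1715 and 1133 calls against WT_flfl, het and M_KO, and the ranges without 1 embryo are given below. With a pseudocount of 5 CPM the Got2 differences were −2.95, −2.88 and −2.64. For the neighbouring lists, the 15 genes called against WT_flfl became 9 without WT_flfl 1 and het 6, and 8 to 16 without 1 embryo, lowest without MZ_KO 6 and 9 without any WT_flfl embryo.

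Embryo numbers recur across groups, and were not taken as pairs: deviations of same-numbered embryos correlated at −0.186 to 0.140 in 9 pairs and at 0.734 in 1, MZKO 1 with het 1. With the replicate block, which leaves 2 residual degrees of freedom in blastocysts, 1 shuttle gene, Got2, was called in each MZ_KO comparison, and 1 neighbouring gene against WT_flfl and 1 against het. Over all genes the block gave 48, 110 and 13 calls against WT_flfl, het and M_KO, in place of 1265, 1711 and 1133. Fits without 1 embryo gave 783 to 1365, 1058 to 1792 and 711 to 1182. In morula MZKO against het, 48 calls became 24 with limma voom, 1 with the block and 29 to 90 without 1 embryo, and MZKO against del 18 became 2 with limma voom. The depth of del 6 limits what its low genes can show.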
